A study of Mus musculus with 6 samples.

Results

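Chemokines and interleukin 6 were examined here as 10 genes, CCL2, CCL7, CCL8, CXCL1, CXCL2, CXCL3, CXCL6, CXCL8, CXCL12 and IL6, out of 11943 genes with a single annotated symbol on the array. They were taken by symbol, with every probe set of each gene, which gave 12 probe sets, 2 each for CXCL8 and CXCL12 and 1 for each of the other 8 genes. The genes were chosen by symbol after the myotube against myoblast changes on these arrays were known. Their changes are therefore a description. Where the fit across all probe sets called one of them, this is stated as a property of that fit, beside the share of all probe sets it called, and supports nothing.

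The samples were 3 arrays of myotubes (D1 to D3) and 3 of myoblasts (G1 to G3). The series title places both in C2C12, a mouse line whose myoblasts fuse into myotubes on differentiation. The title of the third myoblast array names no stage, so its group rests on its description. The myotubes were grown with 2.5% horse serum; for the myoblasts the labels state no medium, and no allele is given for either group. C2C12 is 1 line, so the groups speak for that line. Nothing in the labels says whether replicate arrays stem from different cultures, and their spread may be technical. All arrays were HG-U133A, which carries probes for human transcripts, and which species the RNA came from could not be settled; genes carry the names of the human transcripts. In mice CXCL8 has no direct counterpart. Each value is a MAS5 signal, a linear intensity per probe set that was scaled to a common trimmed mean on each array, and 3 arrays a group limit the precision.

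Chemokines are small secreted proteins that attract leukocytes through receptors coupled to G proteins. The CC group (CCL2, CCL7, CCL8) acts mainly on monocytes, CXCL1, CXCL2, CXCL3, CXCL6 and CXCL8 attract neutrophils through CXCR1 and CXCR2, and CXCL12 acts on cells bearing CXCR4. Interleukin 6 binds its receptor IL6R together with gp130, the product of IL6ST, and signals through JAK kinases to STAT3. In muscle, differentiating and injured fibres are known sources of CCL2 and IL6, and most of these genes are induced by NF-kappaB.

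Several facts of the arrays bear on dim genes such as these. The highest signal of 27 unspiked bacterial control probe sets, used here as the upper end of background, was 731.4, 1040.2 and 520.1 on myotube arrays 1, 2 and 3, and 919.9, 326.5 and 251.5 on myoblast arrays 1, 2 and 3. The 25th percentile of all signals was 232.1, 268.9 and 199.1 on the myotube arrays and 202.2, 136.5 and 154.5 on the myoblast arrays. The low end of the signals thus lay lowest on myoblast arrays 2 and 3. Pearson's r between those 2 arrays, over all probe sets on the log2 scale, was 0.988, and the other pairs within a group between 0.891 and 0.909, while myotube array 3 correlated with them at 0.919 and 0.923. By the laboratory codes in the run records, myoblast array 1 belonged to the same run of codes as all 3 myotube arrays, called here the first laboratory series, and myoblast arrays 2 and 3 to another. Scan day and chip lot cannot be told apart from group.

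Of the 12 probe sets, 2 lay above the control level on every array, both of CXCL12, and 3 (CCL7, CCL8 and CXCL6) on none. The filter on dim probe sets (mean signal of at least 474.1) was passed by 6 probe sets, from CCL2, CXCL1, CXCL12, IL6 and 1 of CXCL8, and 6 did not pass. The limma fit across all tested probe sets, at an adjusted p threshold of 0.05, called 2 of these 6 higher in myotubes (CCL2 and 1 probe set of CXCL12) and 0 lower, where 4.94% of all tested probe sets were called higher and 6.42% lower. CCL2, CXCL1 and IL6 passed the filter only through their myotube signals, as their myoblast means were 262, 180 and 443. In 5 of the 12 every myotube signal lay above every myoblast signal, which held for 17.1% of all probe sets on the array; these were CCL2, CXCL1, CXCL2 and both of CXCL12. The median log2 change over the 10 genes, each taken by its brightest probe set, was 0.45, against 0.12 over all tested genes and 0.27 over the probe sets below the filter. Changes are on the log2(signal + 196.9) scale, myotube minus myoblast, which understates those of dim genes.

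**Figure D1:**
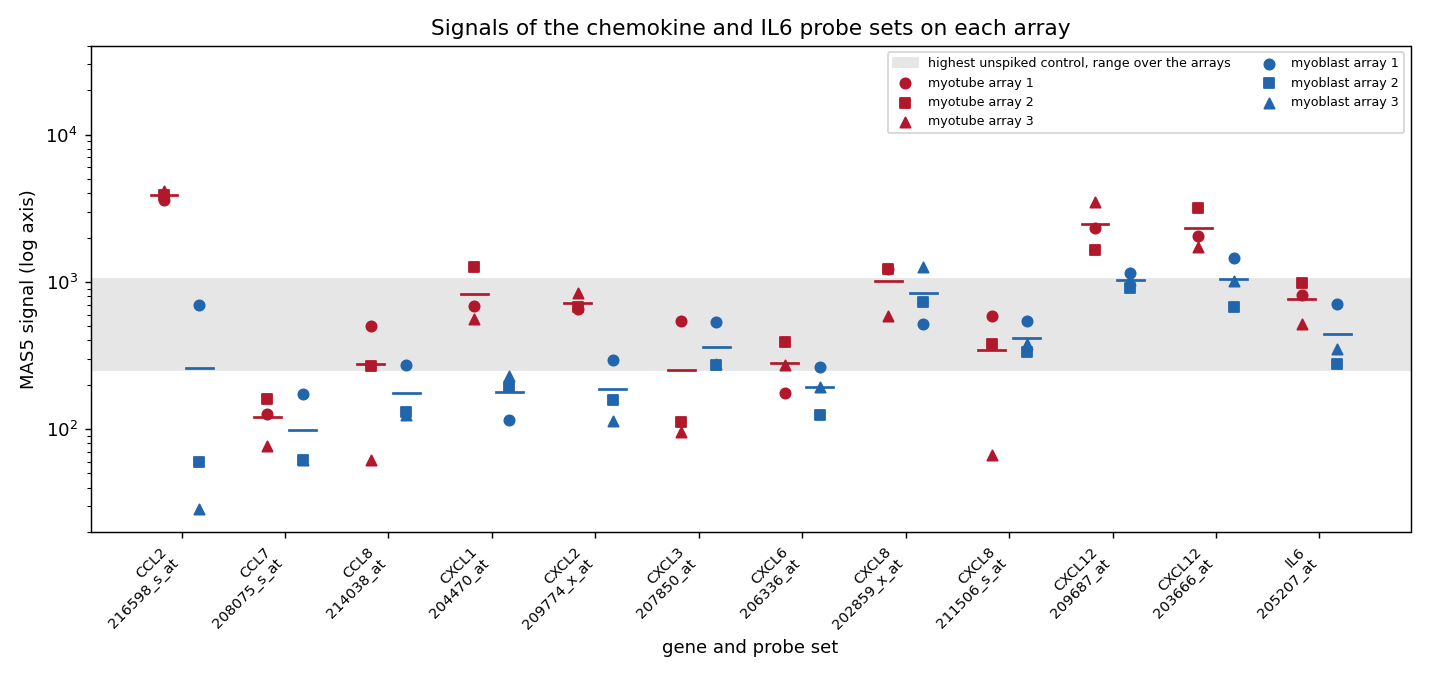
MAS5 signal (log axis) of the 12 probe sets on each array, myotubes in red left of myoblasts in blue; bars are group means and the grey band spans the highest unspiked control of the 6 arrays. CCL2 has the widest gap between the groups, CXCL1, CXCL2 and CXCL12 are separated by less, and the other probe sets overlap.

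CCL2 (probe set 216598_s_at), the monocyte attractant MCP-1, had by far the largest difference among the 12. Its signal was 3587, 3899 and 4146 on the 3 myotube arrays, against 697, 59.7 and 28.7 on the 3 myoblast arrays. The myotube arrays lay close together and all above the control level, and the myoblast arrays all lay below it, with myoblast array 1 clearly above the other 2. The group means were 3877 ± 280 in myotubes and 262 ± 377 in myoblasts (SD, n = 3 each), a log2 change of 3.45 ± 0.47 (SE). With each myoblast signal raised to the control level of its own array, the ratio of geometric means was 9.16. Those control levels differed widely (919.9, 326.5 and 251.5), so 9.16 is not a lower bound. The myotube mean was 5.56 times the signal of myoblast array 1, itself below its control level.

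The size of the CCL2 change depended on myoblast array 1 and on the pseudocount. Within the first laboratory series, where 3 myotube arrays face myoblast array 1 alone, the log2 change was 2.19. Without myoblast array 1 it was 4.08. With the pseudocount at the 10th or 50th percentile of all signals it was 4.23 or 2.38. Since no myoblast array lay above its control level, none of these changes measures the full size of the difference.

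The other members of the CC group gave no such signal. CCL7 (208075_s_at), the monocyte attractant MCP-3 and a neighbour of CCL2 in the chemokine cluster, had signals of 126, 160 and 77.1 in myotubes against 173, 61.8 and 62.1 in myoblasts. CCL8 (214038_at), MCP-2, had 500, 268 and 61.7 in myotubes against 273, 131 and 125 in myoblasts. For both genes the groups overlapped and every array lay below its control level, so these arrays measured no level above background for either and give no fold. Their log2 changes, 0.12 and 0.25, became -0.13 and 0.00 after quantile normalization.

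The CXC chemokines that attract neutrophils did not move together. CXCL1 and CXCL2 were separated between the groups, CXCL3, CXCL6 and CXCL8 were not. These genes have closely related sequences, and the suffix x_at of a probe set marks probes that may also bind other transcripts, so signals within this group may be shared. To show how closely some of their control regions resemble each other, the promoters of the mouse genes of the same names are printed here, as the labels give the mouse as organism. RefSeq (GRCm38.p6) gave a window of 250 bases before to 50 after the start for 6 of the 10 genes. There was no window for CCL2, CCL7, CXCL6 and CXCL8, so the motif matches do not cover them. The 4 windows printed below hold a match to GGANTTTCC, the core of an NF-kappaB site, set in capitals.
Cxcl1, chr5:90890995-90891294, + strand: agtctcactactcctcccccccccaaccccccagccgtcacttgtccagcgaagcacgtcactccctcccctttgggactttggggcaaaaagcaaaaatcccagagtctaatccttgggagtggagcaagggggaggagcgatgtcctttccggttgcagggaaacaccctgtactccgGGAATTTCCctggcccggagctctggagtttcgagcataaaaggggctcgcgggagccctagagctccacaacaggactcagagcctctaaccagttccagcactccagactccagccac
Cxcl2, chr5:90903649-90903948, + strand: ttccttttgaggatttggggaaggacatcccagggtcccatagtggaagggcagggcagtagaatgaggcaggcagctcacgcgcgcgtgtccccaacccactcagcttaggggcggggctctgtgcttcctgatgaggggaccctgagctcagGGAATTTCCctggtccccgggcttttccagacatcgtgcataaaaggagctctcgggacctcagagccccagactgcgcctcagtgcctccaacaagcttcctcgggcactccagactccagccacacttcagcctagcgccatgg
Cxcl3, chr5:90785851-90786150, + strand: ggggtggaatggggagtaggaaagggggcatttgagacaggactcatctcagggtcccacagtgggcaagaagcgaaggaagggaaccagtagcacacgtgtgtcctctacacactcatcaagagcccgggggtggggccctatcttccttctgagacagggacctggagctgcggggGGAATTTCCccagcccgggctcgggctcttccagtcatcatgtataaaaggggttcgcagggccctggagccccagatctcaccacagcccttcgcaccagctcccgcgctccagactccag
Il6, chr5:30012864-30013163, + strand: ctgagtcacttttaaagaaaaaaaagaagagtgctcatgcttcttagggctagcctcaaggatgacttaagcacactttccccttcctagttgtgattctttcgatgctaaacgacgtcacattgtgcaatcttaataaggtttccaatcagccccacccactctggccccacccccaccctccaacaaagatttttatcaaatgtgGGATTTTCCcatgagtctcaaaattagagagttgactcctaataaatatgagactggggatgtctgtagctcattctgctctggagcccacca

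Read on both strands, GGANTTTCC occurred in 1.25% of 32851 promoter windows in that table; matches to the motifs given here did not overlap. Cxcl1, Cxcl2 and Cxcl3 carried the same match, GGAATTTCC, which began 70, 96 and 72 bases before the start, and Il6 carried GGATTTTCC, 43 bases before it. Il6 also held TTGTGCAA, a match to the C/EBP motif TTGNGCAA found in 2.94% of windows, and TGAGTCA, a match to the AP-1 motif TGANTCA found in 7.81%. The letters of TATAAA, present in 13.6% of windows, stood 30 bases before the start of Cxcl3 and 32 before that of Ccl8. In the windows of Ccl8 and Cxcl12 the NF-kappaB, AP-1 and C/EBP letters had no match. A match describes the sequence and does not show that a factor binds. Among the genes with the NF-kappaB letters, CXCL1 and CXCL2 had separated groups on the arrays and CXCL3 and IL6 had overlapping ones.

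CXCL1 (204470_at), a neutrophil attractant also known as GRO-alpha, had signals of 686, 1254 and 558 in myotubes, against 115, 193 and 231 in myoblasts. All myotube arrays were higher, 2 of the 3 lay above their control level, and all myoblast arrays lay below theirs. Means were 833 ± 370 and 180 ± 59.2 in myotubes and myoblasts (SD, n = 3 each), with a log2 change of 1.41 ± 0.43 (SE) that the fit did not call. Myotube array 1 (686) lay below its control level of 731.4, and the control level of myoblast array 1 was 919.9, so no fold is given for CXCL1. Unlike CCL2 it was lowest on myoblast array 1, so within the first laboratory series its change was 1.67.

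CXCL2 (209774_x_at), the close paralogue GRO-beta, had 653, 677 and 834 in myotubes, against 295, 157 and 113 in myoblasts. The groups did not overlap, yet 1 myotube array and no myoblast array exceeded the control level, and the probe set fell below the filter and was not tested. Its log2 change was 1.28, and 0.89 within the first laboratory series. With most signals of both groups below the control level, no fold is given. CXCL3 (207850_at), GRO-gamma, had 545, 111 and 95.7 in myotubes against 537, 272 and 278 in myoblasts. It was high on array 1 of both groups, lower on the others, and below its control level on all but myoblast array 3. CXCL3 was the single gene of the 10 whose log2 change lay below 0, at -0.43, and it was below 0 in all 19 other settings.

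CXCL6 (206336_at), also called GCP-2, had 177, 393 and 272 in myotubes and 265, 124 and 192 in myoblasts, overlapping and below the control level on every array. The 2 probe sets of CXCL8, interleukin 8, differed in sign. For 202859_x_at the signals were 1214, 1217 and 590 in myotubes and 519, 733 and 1255 in myoblasts, a log2 change of 0.23 ± 0.38 (SE), with 3 myotube and 2 myoblast arrays above their control level. For 211506_s_at they were 584, 381 and 66.2 in myotubes and 544, 333 and 376 in myoblasts, a log2 change of -0.31, with 0 myotube and 2 myoblast arrays above it. Neither probe set separated the groups, and together they give no direction for CXCL8.

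CXCL12 (SDF-1), the ligand of CXCR4 that guides progenitor cells, was the member measured above background on every array by both of its probe sets. Probe set 209687_at gave 2308, 1639 and 3489 in myotubes against 1146, 913 and 1030 in myoblasts. Probe set 203666_at gave 2039, 3193 and 1728 in myotubes against 1448, 670 and 1021 in myoblasts. In both the myotube arrays were all higher, although myotube array 3 was the highest by the first probe set and the lowest by the second. The log2 changes were 1.07 ± 0.29 and 1.02 ± 0.31 (SE), about 2.10-fold and 2.03-fold, and the fit called the first.

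The call of that probe set held in 8 of 19 other settings. Leaving out myotube array 1, myotube array 3, myoblast array 2 or myoblast array 3 ended it, with log2 changes of 1.09, 0.81, 1.0 and 1.07, as did quantile normalization, at 0.97, and the laboratory series as a block, at 0.94. Within the first laboratory series the changes of the 2 probe sets were 0.94 and 0.57, the second smaller by more than 1.5 times than with all arrays. Both probe sets were higher in myotubes in every one of these settings.

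**Figure D2:**
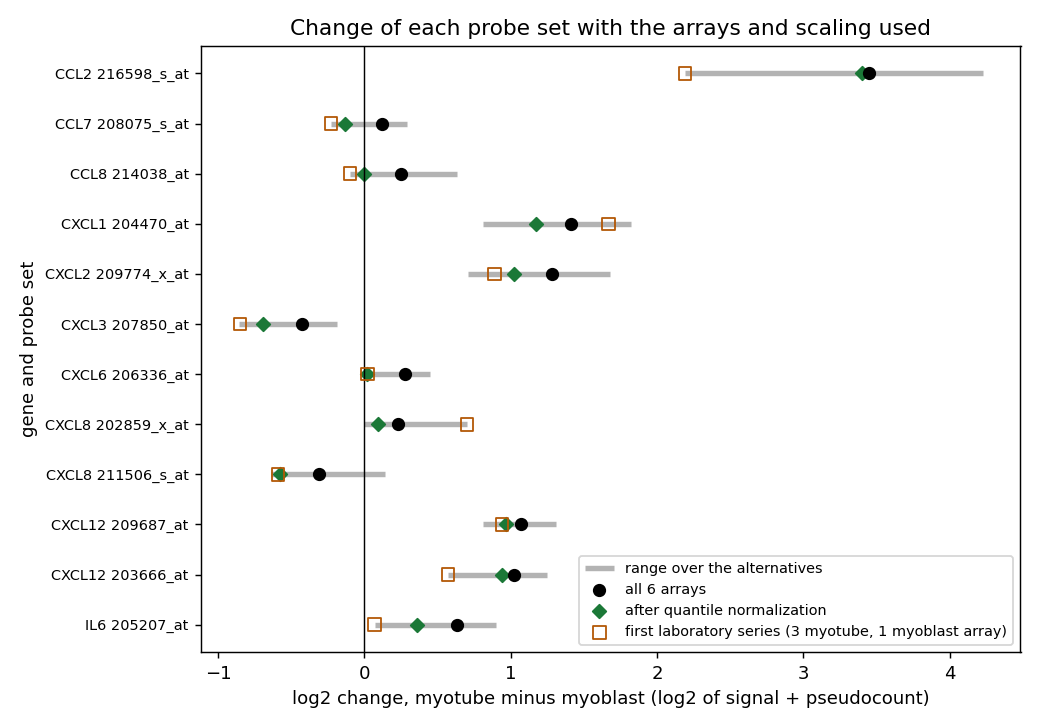
Log2 change, myotube minus myoblast, of the 12 probe sets with all 6 arrays (black), after quantile normalization (green) and within the first laboratory series (open squares); grey bars span the 19 other settings. CCL2 lies between 2.19 and 4.23, and CXCL1, CXCL2 and CXCL12 stay above 0 in every setting, whereas CCL7, CCL8 and 211506_s_at of CXCL8 cross 0.

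IL6 (205207_at), the cytokine of the acute phase response that working muscle also releases, had signals of 811, 981 and 520 in myotubes, against 705, 275 and 348 in myoblasts. The groups overlapped, since myoblast array 1 lay above myotube array 3, and 1 array of each group exceeded its control level. Means were 770 ± 233 and 443 ± 230 in myotubes and myoblasts (SD, n = 3 each), a log2 change of 0.63 ± 0.40 (SE). Within the first laboratory series the change was 0.07, and after quantile normalization 0.36. The 6 IL6 signals stood in exactly the order of the 25th percentiles of the 6 arrays. IL6 was the 1 probe set of the 12 for which this held, and it held for 2.32% of all probe sets.

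**Figure D3:**
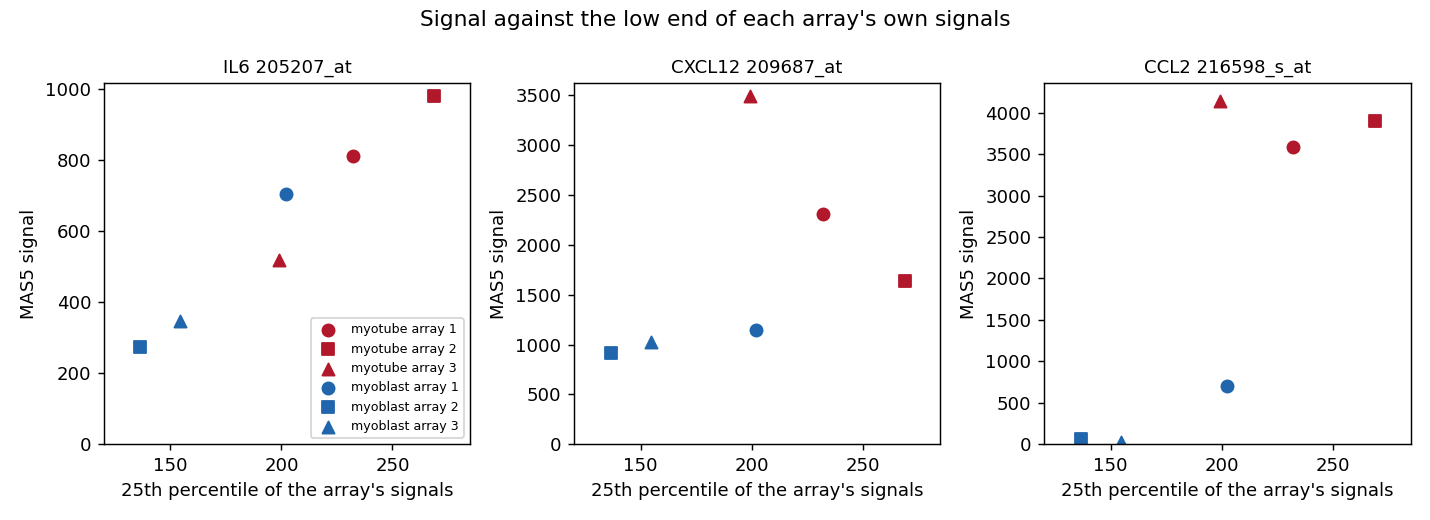
MAS5 signal of IL6, CXCL12 (209687_at) and CCL2 on each array (vertical axes) against the 25th percentile of that array's signals (horizontal axes), myotubes in red and myoblasts in blue. IL6 climbs with the percentile across both groups, whereas CXCL12 and CCL2 separate the groups at similar percentiles, as for myotube array 3 (199.1) and myoblast array 1 (202.2).

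The same arrays stood out for most members. Among the myoblast arrays, array 1 was the highest in 10 of the 12 probe sets, all but CXCL1 and 202859_x_at of CXCL8, as it was in 53.5% of all probe sets. Among the myotube arrays, array 3 was the lowest in 8 of the 12, and in 41.7% of all probe sets.

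The genes whose pattern over the 6 arrays was most like that of CCL2, by Pearson's correlation over 8145 genes that passed the filter, were GSTM1, PXDN, UBE2L6, CYP1B1 and MYH3. Of these MYH3, embryonic myosin heavy chain, had 3770, 3657 and 4090 in myotubes against 510, 8.95 and 27.1 in myoblasts, with the same raised myoblast array 1. CYP1B1, a cytochrome P450, had 11280, 10817 and 9918 in myotubes against 2157, 512 and 516 in myoblasts. Their correlations with CCL2 were 0.997 for MYH3 and 0.997 for CYP1B1, and all 5 lay between 0.997 and 0.999. The genes most like IL6 were F7 (coagulation factor VII, made chiefly by the liver), KRT37 (a hair keratin), HABP2, SLCO1C1 and TSPAN7, with correlations between 0.997 and 0.999. F7, for one, had 741, 874 and 472 in myotubes against 627, 254 and 341 in myoblasts. With 6 arrays in 2 groups these correlations are descriptive.

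Marker genes were read to describe the labelled cell stages. Of 15 skeletal muscle markers on the array 10 passed the filter and 7 were called higher in myotubes, among them MYH3, TNNI1 and TNNC1. Over all tested genes 5.41% were called higher, a share that also belongs beside the fibroblast calls below. MYH3 passed the filter only through its myotube signals (myoblast mean 182), so its call supports nothing. The summed signal of the 15 was 39210 to 46271 in myotubes and 4053 to 14394 in myoblasts. The myogenic factors MYF5, MYOG and MYF6 and the muscle creatine kinase CKM exceeded the control level on no array. All 12 fibroblast markers lay above the control level on every myotube array and 11 on every myoblast array, 9 were called higher, and they summed to 432110 to 647956 in myotubes and 134650 to 303125 in myoblasts. These lists shift in the same direction as CCL2 and CXCL12, and their part in those differences was not tested. Of 14 macrophage and myeloid markers, 1 (ITGAM) exceeded the control level on every myotube array and 0 on every myoblast array. Limma called 0 of 5 tested (1 with an unadjusted p under 0.05), and CD14, TYROBP, LYZ, C1QA and ITGAX exceeded the control level on no array. The 14 markers summed to 5451 to 8304 in myotubes and 2901 to 5484 in myoblasts. Of 11 lymphocyte, 7 neutrophil and 7 endothelial markers, 3, 3 and 1 were tested and 0 called (0, 0 and 1 with an unadjusted p under 0.05). Their summed signals were 3475 to 7911, 2305 to 5660 and 2393 to 4149 in myotubes, and 1761 to 5675, 1709 to 3825 and 1047 to 2553 in myoblasts. In these lists 1, 1 and 1 exceeded the control level on every myotube array, and 1, 0 and 0 on every myoblast array. On no array did 6, 2 and 4 exceed it. In bulk RNA, fewer cells of a type and less RNA per cell cannot be told apart.

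Other genes of the pathway were read from 9 lists, with 95 genes past the filter, of which 9 were called higher and 7 lower. Over all tested genes 5.41% were called higher and 6.74% lower. Among the list genes called higher, IL1B, VCAM1 and DPP4 passed the filter only through their myotube signals. Their myoblast means were 376, 386 and 428, so their calls support nothing. The median log2 change of the 95 was 0.26. Counts with an unadjusted limma p under 0.05, below and for the markers above, stand without the share over all tested genes. That share cannot be smaller than the called shares, so these counts show no excess. With the laboratory series as a block 3 of these 16 kept their call, CXCL5, HMGB1 and NNMT, and the other 13 had limma adjusted p-values from 0.0555 to 0.494.

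Among 6 other chemokine ligands that passed the filter, 3 had an unadjusted limma p under 0.05. Only 1 was called, and it fell. CXCL5 (214974_x_at), ENA-78, a neutrophil attractant of the same receptor group as CXCL1 and CXCL2, had 1090, 596 and 1206 in myotubes, against 4189, 3679 and 4216 in myoblasts. The groups were far apart and all 3 myoblast arrays exceeded the control level. Its log2 change was -1.90 ± 0.26 (SE; limma adjusted p = 0.00217), and -1.96 with the series as a block (adjusted p = 0.0285), and it was called in 18 of 19 other settings. A second probe set, 215101_s_at, gave 1055, 173 and 991 in myotubes against 2296, 2264 and 2274 in myoblasts (-1.59 ± 0.43, limma adjusted p = 0.0395). The third, 207852_at, was below the filter and differed in sign. It had 265, 450 and 127 in myotubes against 38.1, 184 and 233 in myoblasts, overlapping, with a log2 change of 0.44. So by its 2 tested probe sets CXCL5 fell on the arrays on which CXCL1 and CXCL2 stood higher.

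None of 7 chemokine receptors that passed the filter was called by limma in either direction, and 4 had an unadjusted p under 0.05. CXCR4, the receptor of CXCL12, had 1925, 1965 and 1035 in myotubes against 760, 522 and 678 in myoblasts, groups that did not overlap, with a log2 change of 1.08 ± 0.32 (SE; limma adjusted p = 0.0536). It was called in 3 of 19 other settings. CCR10 had a log2 change of 0.90 ± 0.37 (adjusted p = 0.137). CXCR1 and CXCR2, the receptors of CXCL8 and its relatives, exceeded the control level on no array, and CCR2, the receptor of CCL2, had 1506, 506 and 671 in myotubes against 571, 344 and 421 in myoblasts.

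In the interleukin 6 family and its receptors limma called 0 of 14 tested genes, and 1 had an unadjusted p under 0.05. IL6ST, which encodes gp130, had 7609, 4478 and 8211 in myotubes against 5867, 11323 and 10910 in myoblasts (log2 change -0.45 ± 0.29 SE, limma adjusted p = 0.324). Its change turned to 0.15 once the laboratory series was blocked. IL6R exceeded the control level on no array. JAK1, the kinase bound to gp130, changed by -0.44 ± 0.22 (adjusted p = 0.209).

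Of 14 genes of the interleukin 1, TNF and Toll-like receptor input, 2 rose and 1 fell, and 4 had an unadjusted limma p under 0.05. IL1B, the cytokine interleukin 1 beta, had 1156, 2272 and 1334 in myotubes against 292, 507 and 329 in myoblasts, a log2 change of 1.61 ± 0.35 (SE; limma adjusted p = 0.0176), and its second probe set was also called. The TNF receptor gene TNFRSF1A rose by 0.56 ± 0.16 (adjusted p = 0.0478). HMGB1, a chromatin protein that acts as an alarm signal outside the cell, fell by 1.48 on the log2 scale (SE 0.26, adjusted p = 0.00673), and all 3 of its probe sets were called. Leaving out myotube array 2 or myoblast array 3 ended the call of IL1B (highest adjusted p 0.0826), myotube array 2 that of HMGB1 (0.0529), and any array but myoblast array 1 that of TNFRSF1A (0.204 at most). With the series as a block IL1B had 1.82 (adjusted p = 0.0809) and TNFRSF1A 0.59 (0.172).

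None of 9 NF-kappaB subunits and inhibitors was called by limma, and 1 had an unadjusted p under 0.05. The inhibitor NFKBIA, itself an NF-kappaB target, changed by -0.29 ± 0.20 (SE; adjusted p = 0.354) and the subunit RELA by 0.21 ± 0.19 (adjusted p = 0.482). Of 12 other genes that NF-kappaB or interleukin 1 induces in mesenchymal cells, 9 had an unadjusted limma p under 0.05. The median log2 change of the 12 was 0.82. After adjustment only 3 were called, all higher. They were NNMT, a nicotinamide methyltransferase (1.68 ± 0.18 SE, limma adjusted p = 0.000595), VCAM1, an adhesion molecule for leukocytes (1.49 ± 0.31, 0.0153), and CSF1, the macrophage growth factor (1.26 ± 0.24, 0.00989). NNMT was called in all 19 other settings, while VCAM1 missed the threshold when myotube array 1, myoblast array 2 or myoblast array 3 was left out and CSF1 when myoblast array 2 was (highest adjusted p 0.0635 and 0.0514).

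Of 9 C/EBP and AP-1 factors 1 fell, FOSL1, an AP-1 subunit (-1.39 ± 0.21 SE, limma adjusted p = 0.004), and 4 had an unadjusted p under 0.05. Of 12 genes that bind AU-rich elements or act in cytokine mRNA decay, 6 had an unadjusted limma p under 0.05. The median log2 change of the 12 was -0.63. After adjustment 0 were called higher and 3 lower. They were DUSP1, a phosphatase of the p38 kinase pathway (-1.41 ± 0.21, 0.00356), ELAVL1, the stabilising protein HuR (-0.95 ± 0.22, 0.0223), and CNOT7, a deadenylase (-0.78 ± 0.21, 0.0367). ELAVL1, by 1 of its 2 tested probe sets, and CNOT7 lost their calls when any array but myotube array 3 and myoblast array 1 was left out (highest adjusted p 0.0816 and 0.173). With the series as a block the CNOT7 change was -0.44.

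Of 12 genes whose products bind, cleave or present chemokines 4 rose and 1 fell, and 7 had an unadjusted limma p under 0.05. DPP4, a protease that trims CXCL12, had 2112, 1298 and 1850 in myotubes against 471, 374 and 438 in myoblasts (log2 change 1.62 ± 0.30 SE, limma adjusted p = 0.00923). MMP2, a gelatinase that also cleaves CXCL12 and CCL7, had 26359, 14697 and 28716 in myotubes against 8302, 7455 and 7590 in myoblasts (1.5 ± 0.25, 0.00571). The proteoglycan genes VCAN and SDC2 rose by 1.10 ± 0.24 (0.0191) and 0.87 ± 0.24 (0.0437), VCAN by 2 of 4 tested probe sets and SDC2 by 1 of 3. The hyaluronan receptor CD44 fell by 0.86 on the log2 scale (SE 0.23, 0.0359) by 1 of 7 tested probe sets. Leaving out myotube array 1 or 2, or myoblast array 2 or 3, ended the calls of VCAN, SDC2 and CD44, and myotube array 3 also that of SDC2 (highest adjusted p 0.0928, 0.191 and 0.133). With the series as a block VCAN and SDC2 had 0.62 and 0.39.

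**Figure D4:**
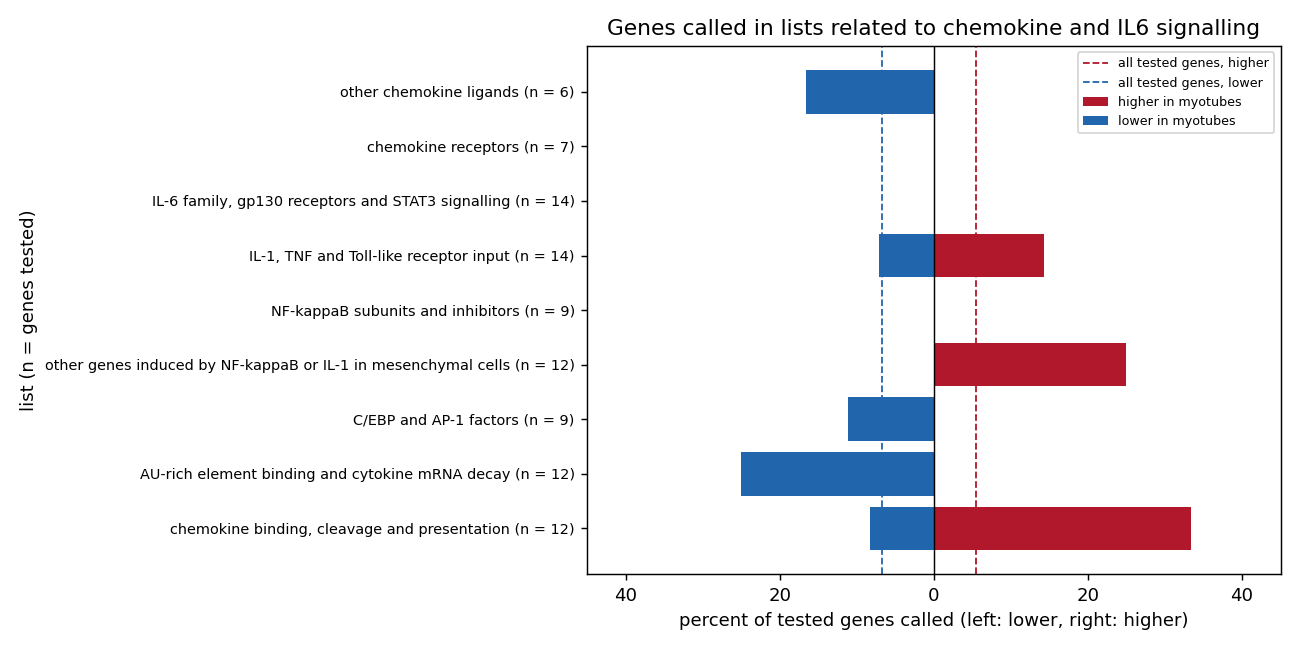
Percent of tested genes called higher (right, red) or lower (left, blue) in myotubes in each of the 9 lists, with the number tested in brackets; dashed lines give the share over all tested genes, 5.41% higher and 6.74% lower. Chemokine receptors, the interleukin 6 family and NF-kappaB subunits have no called gene, and each bar rests on 1 to 4 genes.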

How the data were processed

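Total RNA from 3 myotube and 3 myoblast samples had been labelled with biotin and hybridised to 1-colour arrays. The deposited values are an intensity, 1 linear signal per probe set, for which the submitters' processing notes name MAS5, with no version. Trimmed means, without 2 percent at each end, were 1499.7 on every array. The deposited run records gave chip lot and laboratory code. For the 3 myoblast arrays their numbers differ from the titles, which were used.

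Of 22283 probe sets 68 controls and 47 sex-linked ones were left out. A platform annotation of 2016 gave 19065 a single symbol, and each gene's value is that of the probe set with the highest mean. Signals were taken as log2(signal + 196.9), the 25th percentile of the table, and the dimmest 40 percent of probe sets by mean were not tested. For the other 13308, limma 3.58.1 in R 4.3.3 (statmod 1.5.0 for the random block) gave two-sided moderated tests with a trended prior, Benjamini-Hochberg adjusted, called under 0.05; the fit was tested on simulated data. The p-values rest on array-to-array spread alone. The genes and lists were chosen with earlier results of these data known. All 10 genes are named; for each list up to 4 called genes per direction, or the 2 brightest where none was called, and the 5 genes most correlated with CCL2 or IL6. CEBPD and STAT3 (below), receptor values and secondary probe sets were added after values were seen. Figures were drawn with matplotlib 3.10.9.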

Additional observations from a re-analysis of the deposited data

How the results depend on the processing

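The median change of the 10 genes (0.45) ranged from 0.22 to 0.59 over settings that kept all arrays and from 0.31 to 0.72 when 1 array was left out, each less than the median replicate SD of these genes, 0.41 on the log2 scale, away from it. The number of probe sets called (1513) was 919 without a trend in the variance, 401 with chip lot as a random block, 338 with the laboratory series as a block, 174 in the first series alone, 576 with myoblast arrays 2 and 3 averaged, and 493 (without myotube array 2) to 3469 (without myoblast array 1) when 1 array was left out. With the replicate number as a block it was 2315, and CXCL1 and the second CXCL12 probe set were then called. With this setting included, CXCL1 was called in 3 of 19 other settings and that CXCL12 probe set in 2. The deviations of arrays with the same title number correlated at 0.25, -0.184 and 0.38, not all above 0. The title numbers were therefore not taken to pair the arrays. Pairing by the differing numbers of the run records was not checked. The number of related genes called (16) was 6, 5, 2 and 9 with chip lot, with the series as a block, in the first series alone and with arrays 2 and 3 averaged, and 8 to 33 when 1 array was left out, the highest without myoblast array 1. With the series as a block the STAT3 and CEBPD genes were called, which were not with all arrays. Fewer arrays enter the fits of the first series, of the averaged arrays and of each left-out array. Fewer residual degrees of freedom enter those with the series or the replicate number as a block. The causes of the moves were not tested. Lots hold 1 group each, so that fit cannot separate lot from group, and in the first series the single myoblast array takes its spread from the myotubes. No called chemokine and none of the 16 called related genes changed sign in any setting. CCL7, CCL8, CXCL2, CXCL3 and CXCL6 lay at or below the level of the unspiked controls on most arrays; with no filter limma gave adjusted p-values of 0.0901 (CXCL2) to 0.789 (CCL7).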
